A study of Mus musculus with 8 samples.

Results

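The mTOR and PI3K pathway components described here are 35 listed genes, which run from the insulin and IGF receptors through PI3K, Akt and the mTOR complexes to the translation factors that mTOR controls. A gene was measured where a probe set carried its symbol alone in the platform annotation, which held for 33 of the 35, out of 18194 genes named in the same way. Rps6kb1, encoding the S6 kinase p70, and Rragb, encoding a Rag GTPase, were not analysed here. All 33 measured members passed the filter on low signal, which kept 14267 genes in all.

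The RNA came from mouse embryonic stem cells (ESCs) of strain 129X1 x 129S1 and was measured on 8 Affymetrix arrays, 2 per group. In the shTop1 coculture, ESCs with a short hairpin against Top1 (topoisomerase I) grew with mock ESCs at 1:4 for 4 days. In the shTop1 mix, the same kinds of cells grew apart for 4 days, and their RNA was then combined at 1:4. The shp53 coculture and the shp53 mix were made likewise with ESCs carrying a hairpin against p53. Every group thus held knockdown and mock cells, no group held 1 kind alone, and what the labels call mock is not further described. The labels call the 2 arrays of each group biological replicates. They do not say whether a knockdown line was a single clone, whether replicates came from separate passages, or whether mixes shared mock RNA. The spread behind the p-values is therefore that between these arrays, and how much of it is biological is not known. Because each array read 1 pooled RNA, a change in all cells, a change in the 1:4 balance during coculture and a change in RNA per cell cannot be told apart. Comparing coculture with mix asks what differed when the cells grew together rather than apart.

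In this pathway, ligand-bound insulin and IGF receptors phosphorylate IRS adaptors, which bring PI3K to the membrane. The lipid that PI3K makes recruits PDK1 and Akt, and active Akt keeps FoxO transcription factors out of the nucleus and inhibits the TSC complex, the brake on the GTPase Rheb. Rheb activates mTOR complex 1 at the lysosome, where Rag GTPases bring the complex when amino acids are present, while the kinase LKB1 and its substrate AMPK restrain it when energy is low. The complex then drives cap-dependent translation and holds back autophagy, and in mouse ESCs mTOR activity is known to sustain growth and proliferation. Most of this control works through phosphorylation and protein binding, which RNA levels do not show.

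Signals are given on a linear scale in arbitrary units after quantile normalization, and changes as log2(signal + 16), coculture minus mix, with the standard error (SE) from limma. The arrays of 1 group correlated at 0.974 to 0.982, and arrays of different groups at 0.974 to 0.981. On the first principal component (19.9% of the variance) the coculture arrays lay at -2.94 to 26.1, above the mix arrays at -21.1 to -5.14. The shTop1 coculture replicate 2 was the highest there. The shTop1 coculture replicate 1 stood apart on the second principal component, at 32.6 against -15.5 to 3.63 on the other 7 arrays. Top1 itself had signals of 5281 and 5283 in the shTop1 coculture and 5110 and 5316 in the shTop1 mix, against 5572 and 5886 in the shp53 coculture and 5456 and 5682 in the shp53 mix, a ratio of 0.929 (exact permutation test, two-sided p = 0.0286, the smallest possible with 4 arrays each). The p53 gene was not analysed here. The 10 ESC markers, among them Pou5f1 and Nanog, all passed the filter, with mean signals of 2647 to 36577 and sums that overlapped between cocultures (119078 to 127068) and mixes (122388 to 125599). Markers of other cells had higher sums in the cocultures, but these sums rest on the brightest genes, and some markers went the other way. Averaged over both knockdowns, all 5 fibroblast and all 6 primitive endoderm markers tested had changes above 0, and 3 of 4 trophectoderm markers did. In shTop1 alone, 2 of 6 primitive endoderm and 2 of 4 trophectoderm markers were below 0. In shp53 alone, 2 of 5 fibroblast markers were below 0. Fibroblast markers, of which 9 of 10 listed were named and 5 passed the filter, summed to 685 to 718 in the shTop1 coculture against 509 to 621 in the shTop1 mix, and to 665 to 771 in the shp53 coculture against 565 to 627 in the shp53 mix. The collagen gene Col3a1 and Dcn were below the filter. The 6 primitive endoderm markers summed to 10773 to 11625 and 11457 to 12023 in the shTop1 and shp53 cocultures, against 10543 to 10759 and 10436 to 10663 in the mixes. The trophectoderm markers, 4 of 6 above the filter, summed to 6597 to 6663 and 6834 to 7157 in the cocultures, against 5947 to 6337 and 5953 to 6384 in the mixes, with Elf5 and Gata3 below it. The brightest trophectoderm markers were Krt8 and Krt18, with mean signals of 4332 and 2027. The part of these marker differences in the member values below was not tested.

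No pathway member passed the test between coculture and mix. Averaged over both knockdowns, limma gave 0 of 33 members and 0% of all 14267 genes at an adjusted p under 0.05, and the smallest adjusted p among members was 0.372, for the PI3K catalytic subunit Pik3ca. At an unadjusted p under 0.05, 3 of 33 members stood out (9.09%), against 11.7% of all genes, so the members' share was near and below the background. These were Insr, higher in coculture, and Pik3ca and Rragd, lower in coculture. The count changed when single arrays were left out, but the share of all genes in those fits is not given. That change therefore does not set the members apart from other genes.

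The members lay close to 0 on both sides. Their median log2 change was -0.002, against 0.022 over all genes, and their median absolute change was 0.114, against 0.124. Changes above 0 were found for 16 members and changes below 0 for 17. The sign depended on scaling for 7 members (Pdpk1, Akt1, Tsc2, Rictor, Akt1s1, Eif4ebp1 and Eif4ebp2), and with arrays centred on their medians 23 members (69.7%) lay above 0, against 64.5% of all genes. For 28 of the 33 members the whole 95% interval lay within 0.5 on the log2 scale, a 1.41-fold change, and the exceptions were Foxo3, Irs1, Irs2, Prkaa1 and Rragd. The members were measured somewhat more evenly than most genes: their median residual SD was 0.127 on the log2 scale, against 0.165 over all genes, and ran from 0.042 for Stk11 to 0.389 for Irs2.

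**Figure D1:**
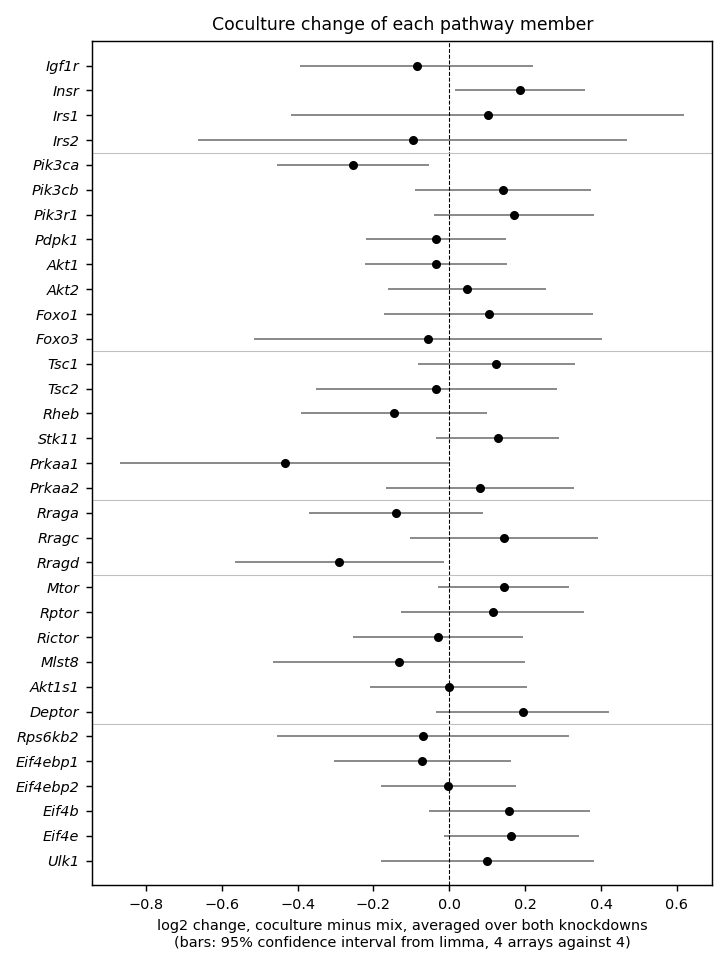
Log2 change of each of the 33 measured members, coculture minus mix averaged over both knockdowns, with 95% confidence intervals from limma (4 arrays against 4), ordered by role from receptors to effectors. The intervals of 30 members hold 0, and those of Insr, Pik3ca and Rragd do not.

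Among the receptors and adaptors, 2 of 4 members were above 0 and 2 below. Insr, the insulin receptor, had signals of 269 and 277 in the shTop1 coculture against 228 and 251 in the shTop1 mix. In the shp53 coculture its signals were 300 and 283, against 248 and 258 in the shp53 mix. On this probe set, its brightest, all 4 coculture arrays thus lay above all 4 mix arrays. The change was 0.19 ± 0.07 (95% interval 0.02 to 0.36, a ratio of 1.14, limma unadjusted p = 0.0366, adjusted p = 0.399). Igf1r, the receptor of IGF1 and IGF2, moved in opposite ways on its brightest probe set. It had 317 and 401 in the shTop1 coculture against 475 and 435 in the shTop1 mix. In shp53 it had 487 and 469 in the coculture against 365 and 492 in the mix. Its shTop1 arrays did not overlap between the groups, its shp53 arrays did, and the mean change was -0.09 ± 0.13. Here and below, where 2 arrays are set against 2 within 1 knockdown, the share of all genes without overlap is not given. Such a separation alone therefore does not set a member apart. Probe sets 1452982_at, 1426565_at and 1452108_at of Igf1r changed by 0.01, 0.01 and 0.20 in shTop1, and by 0.08, 0.04 and 0.11 in shp53. The dimmest kept probe set, 1446303_at, changed by -0.55 in shTop1 and 0.17 in shp53. The Igf1r probe sets thus disagreed.

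The IRS adaptors, which link these receptors to PI3K, had widely spread replicates. Irs1 had 126 and 242 in the shTop1 coculture against 179 and 174 in the shTop1 mix, and 167 and 246 in the shp53 coculture against 174 and 173 in the shp53 mix. Irs2 had 99 and 154 in the shTop1 coculture against 131 and 188 in the shTop1 mix, and 178 and 184 in the shp53 coculture against 121 and 226 in the shp53 mix. For both genes, replicates of 1 group differed more than the groups did, and the changes were 0.10 ± 0.21 for Irs1 and -0.10 ± 0.23 for Irs2.

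Of the 8 members from PI3K to FoxO, 4 were above 0 and 4 below, and Pik3ca was the member furthest from 0 relative to its error. Pik3ca encodes p110 alpha, the catalytic subunit of PI3K that signals from receptor tyrosine kinases. On its brightest probe set (1460326_at) it had signals of 439 and 504 in the shTop1 coculture against 653 and 636 in the shTop1 mix, and 547 and 624 in the shp53 coculture against 616 and 610 in the shp53 mix. The shTop1 coculture arrays were the lowest of the 8 and lay clear of the shTop1 mix, while the shp53 arrays overlapped. The mean change was -0.25 ± 0.08 (95% interval -0.46 to -0.05, a ratio of 0.838, limma unadjusted p = 0.0213, adjusted p = 0.372).

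The other Pik3ca probe sets that passed the filter numbered 4, and a fit of all 26118 kept probe sets with 1 symbol allowed them to be set beside it. Probe set 1429434_at had 253 and 234 in the shTop1 coculture against 457 and 386 in the shTop1 mix, and 262 and 266 in the shp53 coculture against 306 and 320 in the shp53 mix. All 4 coculture arrays lay below all 4 mix arrays, as they did for 3.46% of probe sets, with a change of -0.49 ± 0.09 (limma unadjusted p = 0.00133, adjusted p = 0.398). Probe set 1429435_x_at, whose suffix marks probes that may also match other transcripts, likewise lay lower on all 4 coculture arrays, at 193 to 216 against 236 to 309 on the mix arrays, with a change of -0.34 ± 0.11. Probe set 1453134_at had 270 and 196 in the shTop1 coculture against 425 and 454 in the shTop1 mix, and 207 and 143 in the shp53 coculture against 242 and 179 in the shp53 mix, a change of -0.57 ± 0.17. Probe set 1423144_at had the smallest change, -0.15 ± 0.12, and its groups overlapped.

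All 5 Pik3ca probe sets were lower in coculture in both knockdowns, and 4 of them had an unadjusted p under 0.05, against 10.8% of all probe sets. The change averaged over both knockdowns stayed below 0 for each probe set when any 1 of the 8 arrays was left out, with values of -0.55 to -0.43 for 1429434_at and -0.24 to -0.056 for 1423144_at, and the smallest adjusted p in those fits was 0.283. The shp53 change alone did not: without the shp53 coculture replicate 1 it was 0.02 for 1460326_at and 0.06 for 1423144_at. Probe sets of 1 gene read the same RNA on the same arrays and are not independent. Of the 7 members with 4 or more kept probe sets, Pik3ca was the 1 whose probe sets all had the same sign in the mean comparison, and 18.9% of all such genes (243 of 1288) did so. Leaving out arrays and comparing probe sets in this way was chosen after the values were seen.

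**Figure D2:**
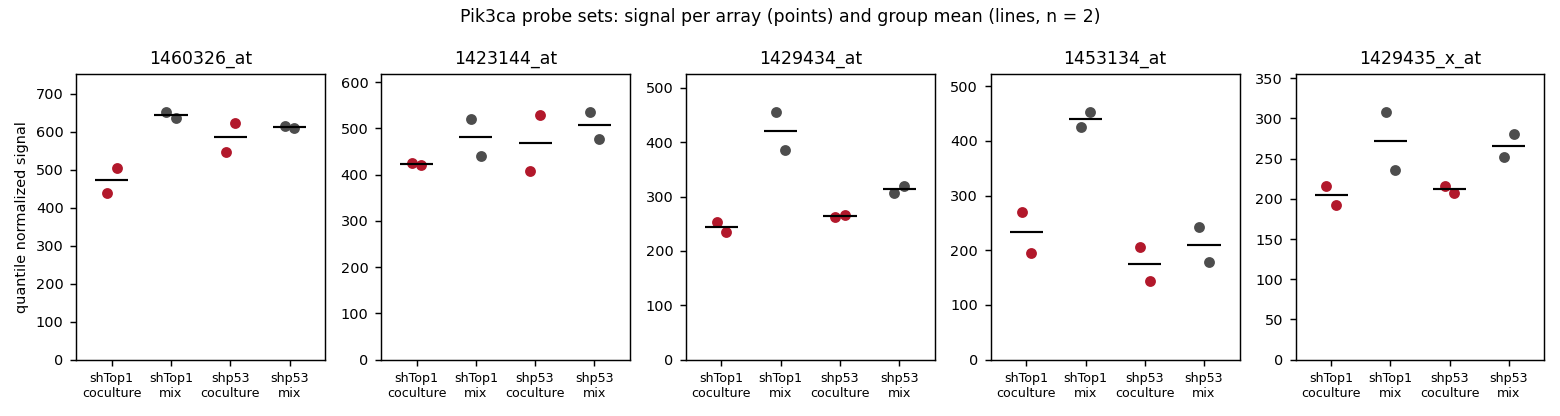
Quantile normalized signal of the 5 kept Pik3ca probe sets on each array (points, red for coculture) with group means (lines, n = 2), for the shTop1 coculture, shTop1 mix, shp53 coculture and shp53 mix. On 1429434_at and 1429435_x_at all 4 coculture arrays lie below all 4 mix arrays, and each panel has its own axis from 0.

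The sequence upstream of the Pik3ca start is shown because its probe sets moved together, and that of Mtor because it encodes the kinase at the centre of the pathway. Both are the 250 bases before the annotated start in RefSeq (GRCm38.p6), at chr3:32396815-32397064 on the plus strand for Pik3ca and chr4:148448332-148448581 on the plus strand for Mtor, with no capitals because no searched motif was found.
Pik3ca: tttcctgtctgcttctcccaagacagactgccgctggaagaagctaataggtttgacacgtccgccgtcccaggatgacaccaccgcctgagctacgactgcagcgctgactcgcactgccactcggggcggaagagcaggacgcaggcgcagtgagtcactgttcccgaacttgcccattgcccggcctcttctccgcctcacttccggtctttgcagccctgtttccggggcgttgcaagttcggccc
Mtor: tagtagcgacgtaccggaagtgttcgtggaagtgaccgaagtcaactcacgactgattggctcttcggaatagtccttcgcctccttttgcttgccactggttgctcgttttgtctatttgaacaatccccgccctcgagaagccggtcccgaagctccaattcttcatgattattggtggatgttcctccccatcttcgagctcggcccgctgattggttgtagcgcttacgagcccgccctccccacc
On both strands, neither window held the FoxO motif GTAAACA, the E-box CACGTG bound by Myc and TFEB, or TGACG, the core of the CREB and ATF site. These letters occurred in 3.17%, 6.02% and 17.8% of 32851 such windows of mouse promoters. The 31 members with a listed promoter had 38 such windows. Of these windows, 1 held the FoxO motif, 6 the E-box and 14 the CREB and ATF core. Counted by gene rather than by window, these were 1, 6 and 13 of the 31 members. The G and C content was 61.6% for Pik3ca and 54.4% for Mtor, against medians of 61.6% over the member promoters and 52.4% over all promoters.

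Pik3cb, the p110 beta subunit, had signals of 456 and 574 in the shTop1 coculture against 482 and 497 in the shTop1 mix, and 527 and 511 in the shp53 coculture against 420 and 467 in the shp53 mix, a change of 0.14 ± 0.10. Pik3r1 encodes p85 alpha, the regulatory subunit that stabilises and restrains p110, and its direction was opposite in the 2 knockdowns. It had 295 and 329 in the shTop1 coculture against 331 and 351 in the shTop1 mix, and 415 and 462 in the shp53 coculture against 292 and 336 in the shp53 mix. The shp53 coculture arrays were the highest of the 8 and the shTop1 coculture arrays were below those of the shTop1 mix, with a mean change of 0.17 ± 0.09.

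The kinases between PI3K and FoxO lay near 0. Pdpk1, encoding PDK1, which phosphorylates Akt, changed by -0.04 ± 0.08 on signals of 2049 to 2419, and Akt1 by -0.03 ± 0.08 on signals of 558 to 651, both with a sign that depended on scaling. Akt2, the isoform known for insulin signalling, changed by 0.05 ± 0.09 on its brightest probe set. A dimmer Akt2 probe set, 1421324_a_at, had 204 and 196 in the shTop1 coculture against 140 and 179 in the shTop1 mix, and 229 and 241 in the shp53 coculture against 116 and 193 in the shp53 mix, so that all coculture arrays were above all mix arrays (0.45 ± 0.17). The Akt2 probe sets thus did not give 1 answer.

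Akt holds the FoxO factors in the cytoplasm. Foxo1 had 678 and 735 in the shTop1 coculture against 509 and 668 in the shTop1 mix, and 723 and 613 in the shp53 coculture against 678 and 715 in the shp53 mix, a change of 0.10 ± 0.11. On its brightest probe set Foxo3 changed by -0.06 ± 0.19, and its signals ran from 759 to 1149 within the shTop1 coculture and from 806 to 1204 within the shTop1 mix. Its other 2 kept probe sets went the other way, 1434832_at by 0.14 ± 0.08 and 1450236_at by 0.53 ± 0.19 (limma unadjusted p = 0.031, adjusted p = 0.432). The Foxo3 probe sets thus disagreed in sign. Over all members with 2 or more kept probe sets, 12 of 24 (50%) had the same sign on each, against 44.9% of such genes.

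Genes that FoxO factors are known to regulate were set beside these members. Of 17 targets listed from general knowledge, all were named and 15 passed the filter, with 0 called by limma's adjusted p, 2 higher and 0 lower at an unadjusted p under 0.05 (13.3%, against 11.7% of all genes), and a median change of 0.073 against 0.022 over all genes. Txnip, which binds thioredoxin and limits glucose uptake, had 5349 and 7349 in the shTop1 coculture against 4294 and 3645 in the shTop1 mix, and 6994 and 5620 in the shp53 coculture against 4318 and 4940 in the shp53 mix. Every coculture array was above every mix array, and the change was 0.55 ± 0.14 (limma unadjusted p = 0.00807, adjusted p = 0.345). Trim63, a ubiquitin ligase known from muscle, had 593 and 552 in the shTop1 coculture against 480 and 486 in the shTop1 mix, and 609 and 533 in the shp53 coculture against 499 and 478 in the shp53 mix (0.23 ± 0.08, adjusted p = 0.375 from limma). The transcription factor Klf6, named after its values were seen, was the third target whose coculture arrays all lay above the mix arrays, with a change of 0.11 ± 0.07, making 3 of 15 (20.0%) against 5.75% of all genes. Of the 15 targets, 9 lay above 0 and 6 below, while 55.3% of all genes lay above 0. Among those below were Cdkn1b at -0.15 and Cat at -0.14, also named after their values were seen. Txnip is also controlled by glucose-sensing factors outside this pathway.

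The 6 members around TSC and AMPK were split 3 above 0 and 3 below. Tsc1, the TSC subunit that stabilises its partner, had 522 and 434 in the shTop1 coculture against 449 and 484 in the shTop1 mix, and 474 and 502 in the shp53 coculture against 417 and 418 in the shp53 mix, a mean change of 0.12 ± 0.09. Tsc2, the subunit that switches Rheb off, changed by -0.03 ± 0.13, with a sign that depended on scaling. Rheb had 7334 and 5883 in the shTop1 coculture against 6799 and 7353 in the shTop1 mix, and 6316 and 6206 in the shp53 coculture against 7626 and 6640 in the shp53 mix. The shp53 arrays of Rheb did not overlap while its shTop1 arrays did, and its mean change was -0.15 ± 0.10.

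Stk11, encoding LKB1, was the most evenly measured member. It had 1024 and 1059 in the shTop1 coculture against 948 and 1008 in the shTop1 mix, and 1135 and 1116 in the shp53 coculture against 1024 and 981 in the shp53 mix. The lowest coculture array and the highest mix array touched at 1024 after rounding, and the change was 0.13 ± 0.07 (95% interval -0.03 to 0.29).

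Prkaa1, an AMPK catalytic subunit, had the member change furthest from 0, with a wide error. Its signals were 287 and 201 in the shTop1 coculture against 347 and 343 in the shTop1 mix, and 261 and 163 in the shp53 coculture against 295 and 251 in the shp53 mix. Coculture was lower in both knockdowns, the shp53 arrays overlapped, and the change was -0.43 ± 0.18 (95% interval -0.87 to 0.00, a ratio of 0.741, limma unadjusted p = 0.0503, adjusted p = 0.425). It ran from -0.59 to -0.28 when single arrays were left out. Prkaa2, the other catalytic subunit, changed by 0.08 ± 0.10.

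Of the Rag GTPases, which pair an A or B form with a C or D form, Rragd stood out at an unadjusted p. Rragd had 509 and 401 in the shTop1 coculture against 640 and 579 in the shTop1 mix, and 472 and 580 in the shp53 coculture against 575 and 601 in the shp53 mix. Its shTop1 arrays did not overlap and its shp53 arrays did, with a mean change of -0.29 ± 0.11 (95% interval -0.57 to -0.01, a ratio of 0.818, limma unadjusted p = 0.042, adjusted p = 0.407). These values are from its brightest probe set. A dim Rragd probe set that was also kept, 1431164_at, changed by -0.07 ± 0.30 on signals of 4.09 to 55.0. It was at -1.10 in shTop1 and 0.95 in shp53, so the Rragd probe sets disagreed in shp53. Rraga changed by -0.14 ± 0.09 on signals of 1954 to 2711, and Rragc by 0.14 ± 0.10 on signals of 1703 to 2338.

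Within the mTOR complexes, the brightest probe sets of Mtor and its inhibitor Deptor were higher on every coculture array than on every mix array. On the other kept probe sets of both genes the groups overlapped. Mtor had 1503 and 1663 in the shTop1 coculture against 1500 and 1419 in the shTop1 mix, and 1587 and 1637 in the shp53 coculture against 1424 and 1432 in the shp53 mix. The margin between the groups was 1503 against 1500, and the change was 0.14 ± 0.07 (95% interval -0.03 to 0.32, a ratio of 1.10, limma unadjusted p = 0.0883, adjusted p = 0.479). Deptor, which binds mTOR in both complexes, had 967 and 1031 in the shTop1 coculture against 920 and 826 in the shTop1 mix, and 1164 and 956 in the shp53 coculture against 951 and 891 in the shp53 mix. Its change was 0.19 ± 0.09 (95% interval -0.03 to 0.42, limma adjusted p = 0.469), and 4 of its 5 kept probe sets were above 0.

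The scaffolds and accessory subunits were nearer 0 relative to their error. Rptor, the scaffold of complex 1, changed by 0.11 ± 0.10, and Rictor, that of complex 2, by -0.03 ± 0.09 with a sign that depended on scaling. Mlst8, shared by both complexes, changed by -0.13 ± 0.14, and Akt1s1, encoding the complex 1 inhibitor PRAS40, by 0.00 ± 0.09.

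With each gene read by its brightest probe set, Deptor, Insr, Mtor and Stk11 were the 4 of 33 members (12.1%) with all coculture arrays above all mix arrays, against 5.75% of all genes, and 0 members had all coculture arrays below, against 3.35%. These 4 genes overlapped between coculture and mix on each of their other kept probe sets. Their direction was the same under quantile normalization, the authors' scaling and median centring, but the absence of overlap was not: under the authors' scaling alone it held for Deptor, Eif4b and Eif4e, and with median centring for Insr, Stk11, Eif4b and Eif4e. Without the shTop1 coculture replicate 1, 9 members (27.3%) had groups without overlap, against 17.1% of all genes, adding Eif4b, Eif4e, Pik3cb, Rheb and Rragc.

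**Figure D3:**
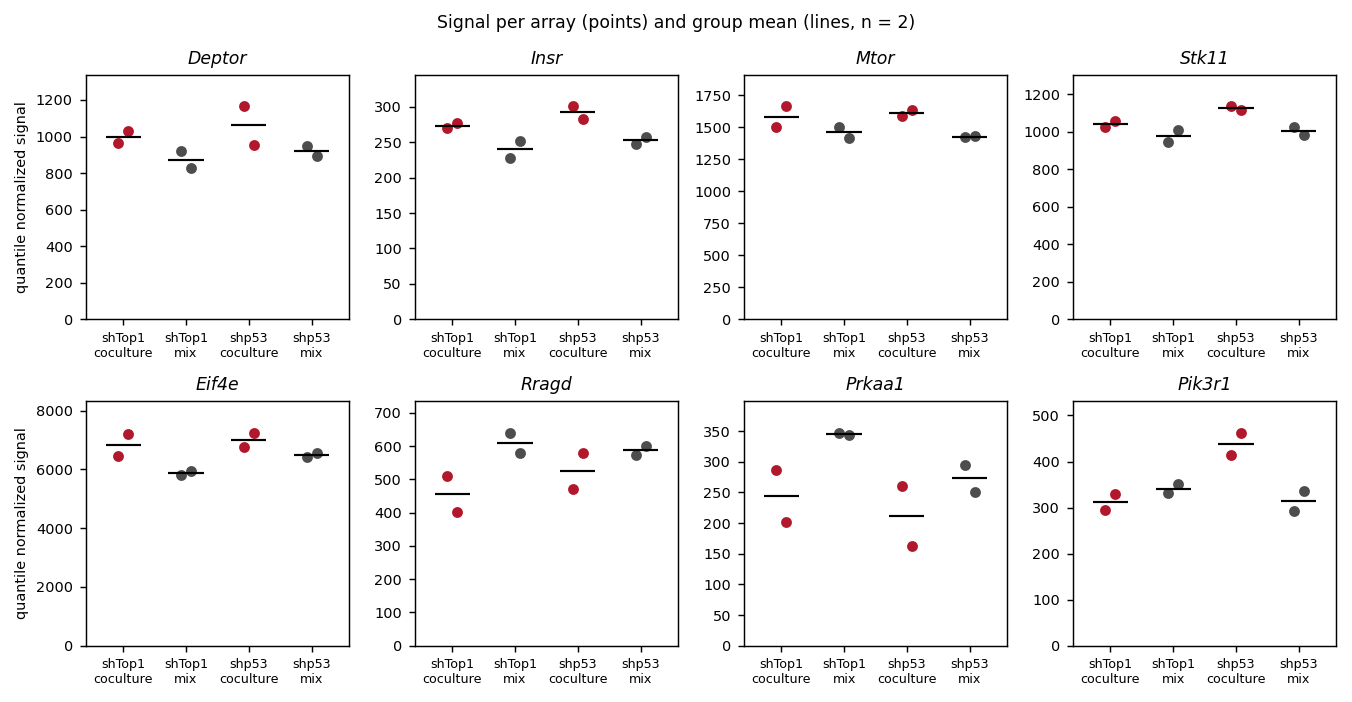
Quantile normalized signal of Deptor, Insr, Mtor, Stk11, Eif4e, Rragd, Prkaa1 and Pik3r1 on each array (points, red for coculture) with group means (lines, n = 2), each panel with its own axis from 0. For the first 4 genes every coculture array lies above every mix array, by a margin as small as 1503 against 1500 for Mtor. Each gene is shown by its brightest probe set, and on other kept probe sets of these 4 genes the groups overlapped.

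Of the 6 effectors of mTOR complex 1, 3 were above 0 and 3 below. Eif4e, the cap-binding translation factor, had 6457 and 7221 in the shTop1 coculture against 5811 and 5951 in the shTop1 mix, and 6778 and 7247 in the shp53 coculture against 6412 and 6554 in the shp53 mix. Within each knockdown the cocultures were above the mixes, and the mean change was 0.16 ± 0.07 (95% interval -0.01 to 0.34, a ratio of 1.12, limma unadjusted p = 0.0661, adjusted p = 0.454). Eif4b, which helps the helicase that unwinds mRNA leaders, had 10156 and 12271 in the shTop1 coculture against 10937 and 10093 in the shTop1 mix, and 12709 and 12419 in the shp53 coculture against 10511 and 10920 in the shp53 mix, a change of 0.16 ± 0.09.

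The repressors that bind Eif4e until mTOR phosphorylates them were near 0. Eif4ebp1 had 13430 and 13245 in the shTop1 coculture against 13682 and 14670 in the shTop1 mix, and 14827 and 12646 in the shp53 coculture against 13013 and 15542 in the shp53 mix. Its groups overlapped, and the change was -0.07 ± 0.10, with a sign that depended on scaling. Eif4ebp2 changed by 0.00 ± 0.07, and its 95% interval was within 0.5 on either side.

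Rps6kb2, an S6 kinase, had 162 and 132 in the shTop1 coculture against 133 and 122 in the shTop1 mix, and 126 and 107 in the shp53 coculture against 188 and 116 in the shp53 mix, a mean change of -0.07 ± 0.16. Ulk1, the kinase that starts autophagy and that mTOR inhibits, changed by 0.10 ± 0.12 on signals of 1636 to 2146. Neither differed beyond the spread of its replicates.

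**Figure D4:**
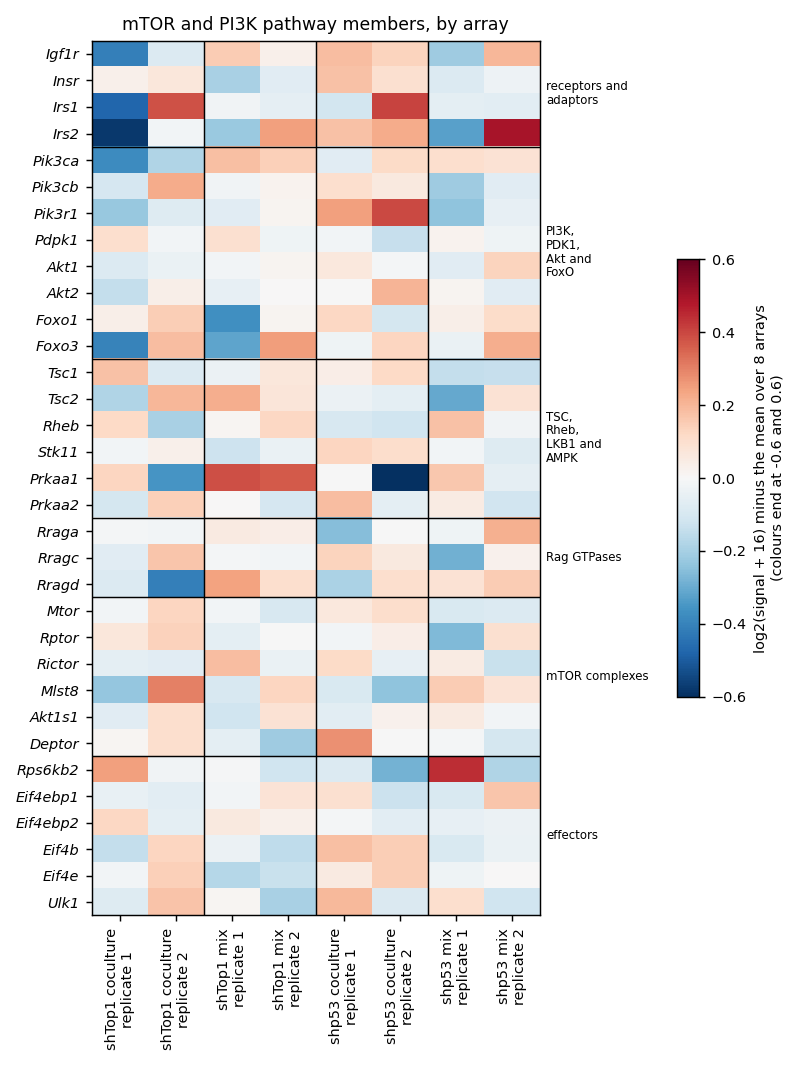
Log2 signal of each of the 33 measured members on each of the 8 arrays, relative to that member's mean over the arrays (colour), with columns in the order shTop1 coculture, shTop1 mix, shp53 coculture, shp53 mix and rows ordered by role. Averaged over both knockdowns, no role has all of its members shifted one way between coculture and mix. In shp53 alone, all 4 receptors and adaptors are higher in coculture.

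By knockdown, the shTop1 coculture against the shTop1 mix gave 0 of 33 members at limma's adjusted p, and 2 (6.06%) at an unadjusted p under 0.05, against 8.2% of all genes. Both were lower, Pik3ca with a change of -0.44 ± 0.12 (95% interval -0.73 to -0.16, limma unadjusted p = 0.00897, adjusted p = 0.544) and Rragd with -0.42 ± 0.16 (limma adjusted p = 0.605). Next came Eif4e at 0.22 ± 0.10, Prkaa1 at -0.49 ± 0.25 and, on its brightest probe set, Igf1r at -0.34 ± 0.18. Single arrays moved these values. Without the shTop1 coculture replicate 1, Rragd was at -0.58, Prkaa1 at -0.73, Igf1r at -0.175 and Eif4e at 0.29. Without the shTop1 coculture replicate 2, Rragd was at -0.25, Prkaa1 at -0.25, Igf1r at -0.50 and Eif4e at 0.14. The median member change was 0.005, against 0.030 over all genes. With single arrays left out the count changed, and the share of all genes in those fits is not given.

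The shp53 coculture against the shp53 mix gave 0 members at limma's adjusted p and 1 (3.03%) at an unadjusted p under 0.05, against 6.86% of all genes. It was Pik3r1, at 0.46 ± 0.12 (95% interval 0.17 to 0.76, limma unadjusted p = 0.00876, adjusted p = 0.685). The other 3 kept Pik3r1 probe sets changed by 0.08, 0.16 and -0.74, so the probe sets of this gene disagreed. Next came Insr at 0.19 ± 0.10, Eif4b at 0.23 ± 0.12, Tsc1 at 0.22 ± 0.12 and Stk11 at 0.16 ± 0.09. The median member change was 0.074, against 0.014 over all genes. This count also changed with single arrays left out, again without a share of all genes beside it.

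Both knockdowns gave the same sign for 20 of 33 members, 12 higher and 8 lower, and opposite signs for 13, against 5116 higher, 3890 lower and 5261 opposite of all 14267 genes. The receptors and adaptors were 1 above and 3 below 0 in shTop1, and 4 above and 0 below in shp53. The test of the difference itself, the shTop1 change minus the shp53 change, called 0 members at limma's adjusted p and gave 1 (3.03%) at an unadjusted p under 0.05, against 4.3% of all genes. It was Pik3r1, at -0.59 ± 0.17 (95% interval -1.01 to -0.17, limma unadjusted p = 0.0142, adjusted p = 1.00). For Pik3ca the difference was -0.37 ± 0.17 (95% interval -0.78 to 0.03), and for Igf1r -0.50 ± 0.25 (95% interval -1.12 to 0.11). On the other kept Igf1r probe sets the difference ran from -0.71 to 0.09. Rps6kb2 followed at 0.49 ± 0.32 and Foxo1 at 0.33 ± 0.23. Rps6kb2 was at 0.18 without the shp53 mix replicate 1 and 0.80 without the shp53 mix replicate 2, and Igf1r at -0.30 and -0.71 in the same fits. Foxo1 was at 0.14 without the shTop1 mix replicate 1 and 0.52 without the shTop1 mix replicate 2. For 23 of the 33 members the interval of the difference reached beyond 0.5 on the log2 scale. The count at an unadjusted p changed with single arrays left out, and no share of all genes is given for those fits.

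**Figure D5:**
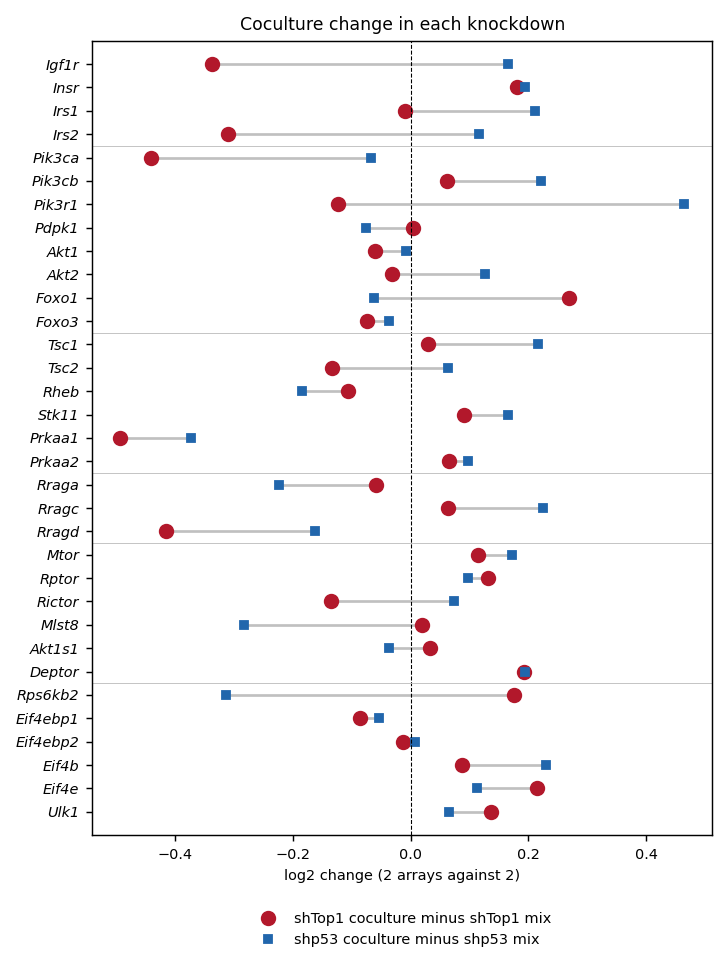
Log2 change of each of the 33 measured members, coculture minus mix, in shTop1 (red) and in shp53 (blue). Points compare 2 arrays against 2, and members are ordered by role. Each member is shown by its brightest probe set, and other probe sets of Igf1r, Pik3r1 and Rragd disagreed. Pik3ca and Rragd lie further below 0 in shTop1, Igf1r lies below 0 in shTop1 and above it in shp53, and Pik3r1 lies above 0 in shp53 and below it in shTop1, with differences of -0.37 for Pik3ca, -0.50 for Igf1r and -0.59 for Pik3r1, none past the adjusted threshold.

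Compared over both culture forms, shTop1 arrays and shp53 arrays gave 0 members at limma's adjusted p and 0 of 33 at an unadjusted p under 0.05, against 4.7% of all genes, and 0 members whose 4 shTop1 arrays were all above (background 1.02%) or all below (1.07%) the 4 shp53 arrays. The smallest adjusted p among members was 0.999. The members nearest to a difference were Pik3r1 at -0.18 ± 0.09, Prkaa1 at 0.26 ± 0.18, Pik3ca at -0.12 ± 0.08, Igf1r at -0.15 ± 0.13 and Irs2 at -0.28 ± 0.23. With single arrays left out, Irs2 ran from -0.494 (without the shp53 mix replicate 1) to -0.079 (without the shp53 mix replicate 2), and Igf1r from -0.259 to -0.051 in the same fits. Prkaa1 ran from 0.106 without the shp53 coculture replicate 2 to 0.421 without the shp53 coculture replicate 1. Pik3ca was at -0.068 without the shTop1 coculture replicate 1. In the fit of all kept probe sets, those of Pik3ca disagreed in sign. Probe set 1453134_at was at 0.705 ± 0.171 (limma unadjusted p = 0.0058, adjusted p = 0.791) and 1429434_at at 0.15 ± 0.09. Probe sets 1423144_at and 1429435_x_at were at -0.10 and -0.01. The other kept Pik3r1 probe sets lay at 0.03 to 0.58, also opposite to the brightest. For 29 of 33 members the interval lay within 0.5. The median member difference was -0.029, against -0.004 over all genes. Leaving out single arrays changed the count at an unadjusted p, and the share of all genes in those fits is not given.

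A list of 75 other pathway genes, such as the Lamtor subunits and the GATOR components, was set beside the members. Of these, 69 were named and 68 tested, with 0 called by limma's adjusted p in coculture against mix, 2 higher and 1 lower at an unadjusted p under 0.05 (4.41%, background 11.7%), and a median change of 0.011. Prr5, encoding Protor-1 of mTOR complex 2, had 140 and 128 in the shTop1 coculture against 132 and 142 in the shTop1 mix, and 131 and 94.7 in the shp53 coculture against 183 and 192 in the shp53 mix. Its mean change of -0.35 ± 0.11 (limma adjusted p = 0.357) was made up of -0.03 in shTop1 and -0.68 in shp53, a difference of 0.65 ± 0.22 (limma adjusted p = 1.00). Lamtor2, a subunit of the Ragulator that anchors Rag GTPases, had 3202 and 3328 in the shTop1 coculture against 2966 and 2946 in the shTop1 mix, and 3437 and 3294 in the shp53 coculture against 2861 and 2993 in the shp53 mix (0.17 ± 0.07, limma adjusted p = 0.401). Fnip1, a partner of folliculin, which acts on the Rag GTPases, changed by 0.17 ± 0.07, and Atg13, a subunit of the Ulk1 complex, by 0.25 ± 0.10, both with limma adjusted p above 0.4. Groups did not overlap for Lamtor2 and Atg13, higher in coculture (2.94% of 68, background 5.75%), and for Sgk1, a kinase downstream of mTOR complex 2 named after its values were seen, which was lower (7809 and 7722 in the shTop1 coculture against 8753 and 8688 in the shTop1 mix, and 7392 and 8441 in the shp53 coculture against 8773 and 8829 in the shp53 mix).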

How the data were processed

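RNA was measured on 8 Affymetrix arrays, 2 in each of 4 groups. The authors deposited 1 intensity on a linear scale for each probe set of each array. The authors had scaled each array to a trimmed mean of 500, as read from the values, and the tool that summarised the probes was not given in the sources used here. Of 45101 probe sets, 34958 carried 1 symbol in the platform annotation, 932 several and 9211 none listed, and only the first kind was named. After quantile normalization, log2(value + 16) was used, which understates changes of dim genes. The probe set of highest mean stood for its gene, and genes with that mean under the 30th percentile, a signal of 22.1, were dropped. A model of the 4 group means was fitted to the 8 arrays in limma 3.58.1 under R 4.3.3 (lmFit, eBayes, 4 residual degrees of freedom), with two-sided p-values adjusted by Benjamini-Hochberg over 14267 genes and called at 0.05. Coculture was compared with mix (mean, shTop1, shp53, and their difference) and shTop1 with shp53. The number of arrays limits the precision.

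Every member was named. Values per array were given for the 5 members with the smallest p in each comparison, for the 3 brightest and the 3 dimmest members, and for others that a sentence turns on. Of the further pathway genes and FoxO targets, the 4 and 2 with the smallest p in the mean comparison were named. Members and lists were chosen with earlier results of these data known. Deviations of same-numbered replicates correlated at -0.007 to 0.051 between groups, so the numbers were not taken as pairs. In all 4 groups, however, replicate 2 was higher for 5 members and lower for 4 (27.3%), against 14.6% of all genes. Eif4e and Pik3r1 were among the higher and Prkaa1 among the lower. Motifs were counted in RefSeq promoters. Alternatives covered the scaling, pseudocount, filter, choice of probe set, variance model, groups in the fit, a replicate block, and each array left out. The fit was tested on simulated data.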

Additional observations from a re-analysis of the deposited data

How the results depend on the processing

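No member passed limma's adjusted p in any setting run, and the direction of each member in the 5 smallest-p lists held in every setting except when all probe sets of a gene were averaged. That average gave -0.015 for Eif4e in shTop1, -0.007 for Pik3r1 in shp53, 0.039 for the Pik3r1 difference, and 0.148 for Pik3r1 and 0.126 for Pik3ca in shTop1 against shp53. It also gave 1, 2 and 0 members at an unadjusted p under 0.05 in shTop1, in shp53 and in the difference, a median of 0.033 in shTop1 against shp53, and 2 members without overlap between coculture and mix. With every probe set tested, 8 of 83 had an unadjusted p under 0.05 in the mean comparison, against 10.8% of all probe sets. The counts were 7 in shTop1, 3 in shp53, 4 in the difference and 1 in shTop1 against shp53. The median of the mean comparison was then 0.066, and 7 probe sets had no overlap. Trended and robust variances gave 6 in the mean comparison, 4 in shTop1 and 2 in shp53, and restricting the fit to the compared groups gave 1 in shTop1. Median centring gave medians of 0.078 in the mean comparison, 0.065 in shTop1, 0.129 in shp53 and 0.029 in shTop1 against shp53. The replicate block, which the correlations of replicate deviations did not call for, gave 2 members in the mean comparison and 1 in shTop1 against shp53. Apart from the 10.8% and the shares without overlap between coculture and mix given below, shares over all genes are not given beside the counts in this paragraph. The counts alone therefore do not set the members apart from other genes. The cause of these shifts was not tested. With 1 array left out at a time, the counts were 0 to 5 in the mean comparison, 1 to 3 in shTop1, 0 to 2 in shp53, 0 to 3 in the difference and 0 to 1 in shTop1 against shp53. The medians were -0.004 to 0.060, -0.057 to 0.057, -0.001 to 0.093, -0.115 to -0.007 and -0.070 to -0.004 in the same order. Members without overlap numbered 4 to 9 between coculture and mix (12.1% to 27.3%, against 11.4% to 17.1% of all genes), and 0 to 1 between shTop1 and shp53. Fewer arrays make such a separation easier, so this range is no measure of how steady the result is. A group then left with 1 array is assumed to vary like the others.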

Other observations

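Of the 68 further pathway genes, 4 had all shTop1 arrays below all shp53 arrays, against 1.07% of all genes, and they were named after their values were seen. Fnip1 had 1599 and 1613 in the shTop1 coculture and 1584 and 1662 in the shTop1 mix, against 2400 and 2191 in the shp53 coculture and 1801 and 1776 in the shp53 mix, a difference of -0.32 ± 0.07 (limma adjusted p = 0.703). Mapkap1, a subunit of mTOR complex 2, had 617 to 663 on the shTop1 arrays against 707 to 802 on the shp53 arrays, a difference of -0.25 ± 0.07 (limma adjusted p = 0.962). The others were the AMPK subunit gene Prkab2, at -0.20 ± 0.09, and Strada, encoding a partner of LKB1, at -0.28 ± 0.12. No gene of this list passed limma's adjusted p in that comparison, in which 2 of the 68 had an unadjusted p under 0.05 (2.94%, against 4.7% of all genes).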
